A study of Mus musculus with 2 samples.

Results

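The glutathione peroxidase family of the mouse, Gpx1 to Gpx8, was described in polyadenylated RNA of the gonadal fat pad. Members were the genes whose symbols are Gpx1 to Gpx8, and all 8 were found among the 43346 genes of the deposited tables. They carried 22 of the 103639 listed transcripts. The tissue came from adult C57BL/6J mice aged 8 weeks, a common inbred strain, and the labels describe each sample as a pool of both sexes. The libraries did not show that mixture: Xist, expressed from the inactive X chromosome of females, had 18 counts in replicate 1 and 4 counts in replicate 2, while the Y-linked gene Eif2s3y had 10.49 and 16.90 TPM and Ddx3y had 6.70 and 6.73 TPM. There were 2 libraries of 1 group, named biological replicates 1 and 2, with no second condition. They were made from separate biosamples under the same donor identifier, so the number of mice behind each is unknown and the spread between them may be partly technical.

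Glutathione peroxidases reduce hydrogen peroxide or organic hydroperoxides to water or alcohols, usually with electrons from glutathione. The catalytic residue is selenocysteine in some members and cysteine in the others. Selenocysteine is the amino acid read from a TGA codon in the coding sequence, a triplet that otherwise ends translation. The enzymes differ in place: some act in the cytosol or mitochondria, some are secreted, and some sit in the endoplasmic reticulum (ER). Gpx5 is best known from the epididymis, where sperm complete their maturation, and in male mice that duct lies against the gonadal fat pad.

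The codon of the catalytic residue divided the family evenly. The sequences below are 33 bases of coding strand centred on that codon, with 5 codons on each side, from the GENCODE M21 transcripts on the build mm10 (GRCm38). Capitals mark the catalytic codon, which is TGA for selenocysteine in 4 members and TGC or TGT for cysteine in the other 4.
Gpx1: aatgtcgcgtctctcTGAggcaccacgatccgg
Gpx2: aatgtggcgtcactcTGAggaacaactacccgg
Gpx3: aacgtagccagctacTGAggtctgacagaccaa
Gpx4: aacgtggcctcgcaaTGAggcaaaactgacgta
Gpx5: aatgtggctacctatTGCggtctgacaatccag
Gpx6: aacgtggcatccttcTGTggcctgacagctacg
Gpx7: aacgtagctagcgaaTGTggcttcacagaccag
Gpx8: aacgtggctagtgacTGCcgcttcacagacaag
Of the 30 bases around the codon, 9 were identical in all 8 genes. The annotation carries a selenocysteine record at the TGA of Gpx1, Gpx2, Gpx3 and Gpx4, and the coding sequences of the other 4 held 0 in-frame TGA codons before the stop. The catalytic codon was number 73 in Gpx3, Gpx5 and Gpx6 and in the Gpx4 transcript used here, counted from the start codon. It was number 47 in Gpx1, 40 in Gpx2, 56 in Gpx7 and 79 in Gpx8. It lies in exon 1 of 2 in Gpx1 and Gpx2, in exon 3 of 7 in Gpx4, and in exon 2 of the remaining genes. Across the whole coding sequence, identity was highest between Gpx5 and Gpx6 at 72.1%, followed by Gpx3 and Gpx5 at 71.0% and Gpx3 and Gpx6 at 70.7%. Gpx1 and Gpx2 shared 69.0% of aligned bases and Gpx7 and Gpx8 shared 63.7%, while the lowest pair was Gpx2 and Gpx8 at 58.1%.

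Depth was similar in both libraries, with expected counts over the 43346 genes of 47106979 in replicate 1 and 54129473 in replicate 2. An expected count is an estimated number of sequenced fragments. TPM, used for all levels below, is the abundance per transcript length scaled to a fixed total per library, so it can be compared between genes. In the libraries 14303 genes were expressed, taken as 1 TPM or more in both. Library differences are given as log2 of (TPM + 1), replicate 1 over replicate 2, which understates the difference of low genes. Among the 14875 genes that averaged at least 1 TPM this ratio had a median of 0.12 and an SD of 0.47. With 1 group of 2 replicates no difference was tested.

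The fat pad libraries expressed 7 of the 8 family members, and the secreted enzyme Gpx5 outweighed all the others together. The family sum was 11867 TPM in replicate 1, against 9364.9 TPM in replicate 2, which was 1.23% and 0.961% of the TPM of all genes. Gpx5 alone held 80.21% and 64.94% of the family sum. By mean level the order was Gpx5, Gpx3, Gpx4, Gpx1, Gpx6, Gpx7, Gpx8 and Gpx2. The cysteine members held 9587.1 and 6168.3 TPM and the selenocysteine members held 2280 and 3196.6 TPM, so the cysteine side was larger in both libraries. Without Gpx5 the sum was 2349 TPM in replicate 1, against 3283.2 TPM in replicate 2, nearly all of it from selenocysteine members.

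**Figure D1:**
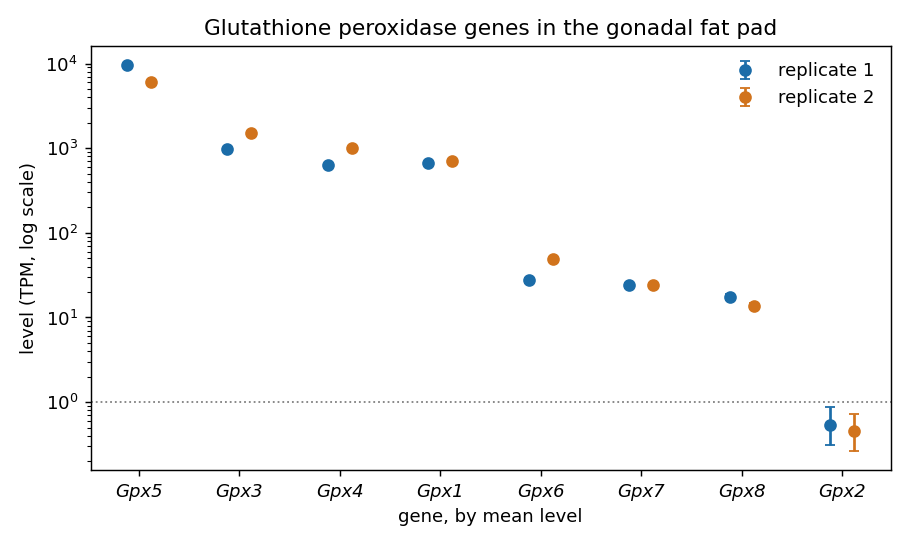
TPM of each Gpx gene on a log10 axis in replicate 1 (left point) and replicate 2 (right point), with error bars for the exact 95% counting interval, ordered by mean level. Gpx5 stood above Gpx3, Gpx4 and Gpx1, of which Gpx4 overlapped both others, then came Gpx6, Gpx7 and Gpx8, and Gpx2 lay below 1 TPM in both libraries.

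No member differed by over 2-fold between the libraries, 0 of the 7 that could be assessed. Of the 16920 genes whose expected counts averaged at least 20, 2.70% did. At so low a share, 0 of 7 does not set the family apart from other genes. Gpx2 fell under that count minimum. By direction, 1.54% of those genes were over 2-fold higher in replicate 1 and 1.15% were over 2-fold higher in replicate 2. Within that limit the members did not move together. Gpx5 and Gpx8 were higher in replicate 1, Gpx3, Gpx4 and Gpx6 were lower in replicate 1, and Gpx1 and Gpx7 were nearly level. The family's median log2 ratio over its 7 expressed members was −0.05, against 0.12 over all genes. Relative to that median of all genes, Gpx5 lay at 0.53, Gpx8 at 0.20, Gpx7 at −0.13, Gpx1 at −0.17, Gpx3 at −0.73, Gpx4 at −0.80 and Gpx6 at −0.92. Among genes averaging at least 1 TPM, the 5th percentile of the log2 ratio was −0.51 and the 95th was 0.76. Before centring, Gpx3 at −0.61, Gpx4 at −0.68 and Gpx6 at −0.80 lay below the 5th percentile. Gpx5 at 0.65 lay below the 95th.

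**Figure D2:**
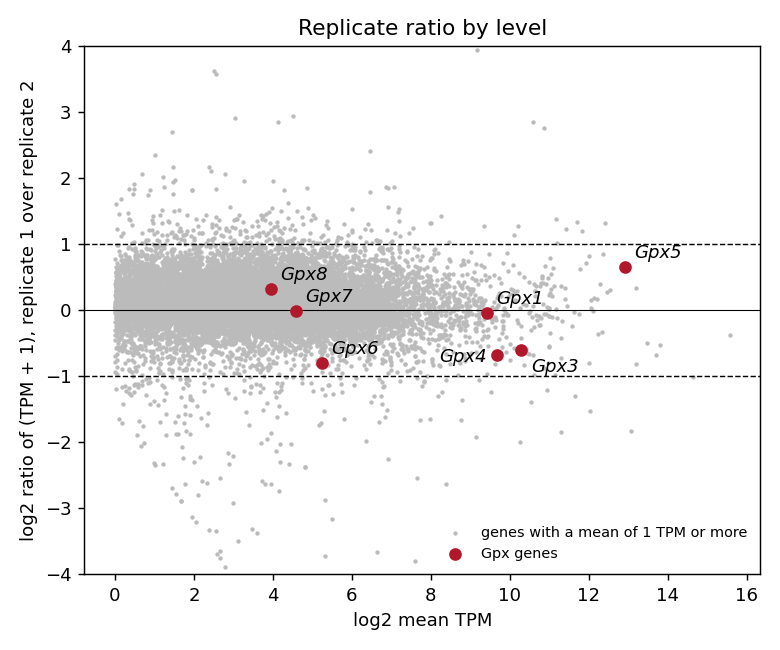
Each point is a gene averaging at least 1 TPM, with log2 mean TPM on the x axis and the log2 ratio of (TPM + 1), replicate 1 over replicate 2, on the y axis. All 7 expressed Gpx genes lie inside the dashed 2-fold lines, with Gpx5 at 0.65 as the highest of them and Gpx6 at −0.80 as the lowest, and 15 of the 14875 genes fall outside the axis.

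Gpx5 encodes the secreted epididymal peroxidase, thought to protect maturing sperm from lipid peroxidation. It reached 9518.09 TPM in replicate 1 and 6081.78 TPM in replicate 2 (mean 7800.0 ± 2430, SD, n = 2). It ranked 7th and 11th of all genes by TPM, and its 504347 and 401031 fragments ranked 3rd and 4th. Those fragments were 1.07% and 0.741% of all gene counts. Replicate 1 was the higher library by 1.57-fold, and 11.3% of the compared genes had a larger absolute log2 ratio. The gene lies on chromosome 13 at 21286429 to 21292731 on the minus strand, with its TGC codon at 21291336 to 21291338. Clu, which encodes the secreted chaperone clusterin, had the level most like it, at 9824.79 and 6379.83 TPM, a distance of 0.0828 in log2(TPM + 1) over the 2 libraries. Crip1 at a distance of 0.477 and the beta-defensin gene Defb25 at 0.578 came next among protein-coding genes.

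By the deposited transcript estimates, the library difference of Gpx5 lay in 1 of its 2 transcripts. The shorter form of 1629 nt, ENSMUST00000004456.4, had 7695.44 and 4148.81 TPM, or 80.85% and 68.22% of the gene. The longer form of 1674 nt, Gpx5-201, had 1822.65 and 1932.97 TPM, or 19.15% and 31.78%. The shorter form was thus much higher in replicate 1, whereas the longer form was slightly lower there. They differ by 45 nt in length, so the split of fragments between them is an estimate. The posterior SD of the count was 1331.89 fragments for the shorter form in replicate 1, small beside its 405295.12 fragments. That SD does not cover errors in the transcript models used for counting. The shorter form is absent from the M21 annotation, so its exons were not compared.

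Gpx6, the neighbour of Gpx5, was present at a far lower level and leaned the other way. Its product was described from olfactory epithelium, and it carries cysteine in the mouse where the human protein has selenocysteine. It had 27.51 TPM in replicate 1 and 48.65 TPM in replicate 2 (mean 38.08 ± 14.95, SD, n = 2), from 1042 and 2279 fragments. Replicate 2 was thus the higher library by 1.77-fold. Its log2 ratio of −0.80 was the lowest in the family, and 6.42% of genes had a larger absolute ratio. Gpx6 lies on chromosome 13 at 21312125 to 21319624 on the plus strand, 19393 bases from Gpx5. The transcript Gpx6-201 carried 98.50% and 98.47% of it. Of 5 olfactory epithelium markers, 2 were expressed, the odorant-binding protein gene Obp2a at 21.25 and 20.77 TPM and the olfactory marker protein gene Omp at 9.95 and 7.06 TPM. Obp1a and Cyp2g1 were at 0 TPM in both libraries, and Bpifb3 was at 0 TPM in replicate 1 and 0.04 TPM in replicate 2.

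Gpx3 encodes the secreted plasma peroxidase, which adipose tissue also makes. It had 979.21 TPM in replicate 1 and 1497.10 TPM in replicate 2 (mean 1238 ± 366.2, SD, n = 2), from 50166 and 95228.1 fragments. The level was 1.53-fold higher in replicate 2, and 13.1% of genes had a larger absolute ratio. It ranked 130th and 95th by TPM, on chromosome 11 at 54902453 to 54910377 on the plus strand. The full-length transcript Gpx3-201 carried 99.61% and 99.90% of the level. Nearest to it by level were Ptgds, which encodes a prostaglandin D synthase, at a distance of 0.143, Rps27rt at 0.148 and Dbi at 0.176.

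Gpx4 encodes the phospholipid hydroperoxide peroxidase, which protects membranes from ferroptosis and is a structural protein of the sperm midpiece. It had 624.42 TPM in replicate 1 and 1001.74 TPM in replicate 2 (mean 813.1 ± 266.8, SD, n = 2), from 16874 and 33454 fragments. The gene lies on chromosome 10 at 80047166 to 80056439 on the plus strand. Replicate 2 was 1.60-fold higher, and 9.91% of genes had a larger absolute ratio. Its range overlapped that of Gpx3, since Gpx4 in replicate 2 exceeded Gpx3 in replicate 1. Its order with Gpx1 also turned, since Gpx4 was 0.924 times Gpx1 in replicate 1 and 1.44 times in replicate 2. Genes nearest in level were Ppia at 0.206, Anxa2 at 0.234 and Spink2 at 0.299.

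Gpx4 has alternative first exons on chromosome 10 that give different protein starts. The first 30 coding bases of the 2 forms are shown because they separate the cytosolic and mitochondrial enzyme from the nuclear form made in sperm cells, with the start codon in capitals.
Gpx4-202: ATGagctggggccgtctgagccgcttactt
Gpx4-201: ATGggccgcgcggccgcccgcaagcgggga
The first exon of Gpx4-202 spans 80053488 to 80053715 and that of Gpx4-201 spans 80054037 to 80054300, downstream of it. Gpx4-202, with 197 codons, had 585.78 TPM in replicate 1 and 966.19 TPM in replicate 2, or 93.81% and 96.45% of the gene. Gpx4-201, with 253 codons, had 14.06 and 5.17 TPM, or 2.25% and 0.52%. So the nuclear form was higher in replicate 1 than in replicate 2, by 2.72-fold, against the direction of its own gene. Gpx4-207, another protein-coding form, went the same way, at 8.98 and 4.17 TPM, or 2.15-fold. The counts of Gpx4-201 were 408.15 and 185.21 fragments, with a posterior SD of 25.73 fragments in replicate 1. Testis germ cell markers were also higher in replicate 1: 7 of 10 were expressed, summing to 558.8 and 371.1 TPM. Of the 14875 genes averaging at least 1 TPM, 9669 had positive log2 ratios. So did all 7 of these markers at that level, between 0.20 and 1.55. The other 3, Acrv1, Sycp3 and Ddx4, were under 1 TPM in both libraries. The part of germ cells in the difference of Gpx4-201 or Gpx4-207 was not tested.

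Gpx1 encodes the abundant cytosolic enzyme that reduces hydrogen peroxide. It had 675.85 TPM in replicate 1 and 697.32 TPM in replicate 2 (mean 686.6 ± 15.18, SD, n = 2), from 15327 and 20704 fragments. By TPM the libraries were nearly level, with a log2 ratio of −0.05. A larger absolute ratio was seen in 89.4% of genes. Gpx1 lies on chromosome 9 at 108338903 to 108340343 on the plus strand. The ribosomal protein gene Rpl7a was nearest in level at a distance of 0.0394, followed by H2-D1 and Gstm1, both at 0.134.

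Below its level total, 3 transcripts shared Gpx1, and their shares differed between libraries. Gpx1-201 had 192.05 and 249.83 TPM, or 28.42% and 35.83%. Gpx1-202 had 263.25 and 307.11 TPM, or 38.95% and 44.04%. Gpx1-204 had 219.32 and 138.53 TPM, or 32.45% and 19.87%, and was the form that was higher in replicate 1. The splice junctions of Gpx1-201 and Gpx1-202 are shown because they differ by 3 bases at the start of exon 2, given in capitals.
Gpx1-201: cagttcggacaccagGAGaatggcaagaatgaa
Gpx1-202: cagttcggacaccagaatggcaagaatgaa
Exon 1 ends at 108339558 in both, and exon 2 starts at 108339777 in Gpx1-201 and at 108339780 in Gpx1-202. The exons of Gpx1-201, Gpx1-202 and Gpx1-204 all contain the TGA at 108339451 to 108339453. The annotated coding sequence of Gpx1-202 and Gpx1-204, however, begins at 108339481, which is 27 bases after that codon. The exons of both also hold the start codon of Gpx1-201, and which start codon is used was not tested. Gpx1-201, Gpx1-202 and Gpx1-204 overlap over most of their length, so their shares are model estimates.

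**Figure D3:**
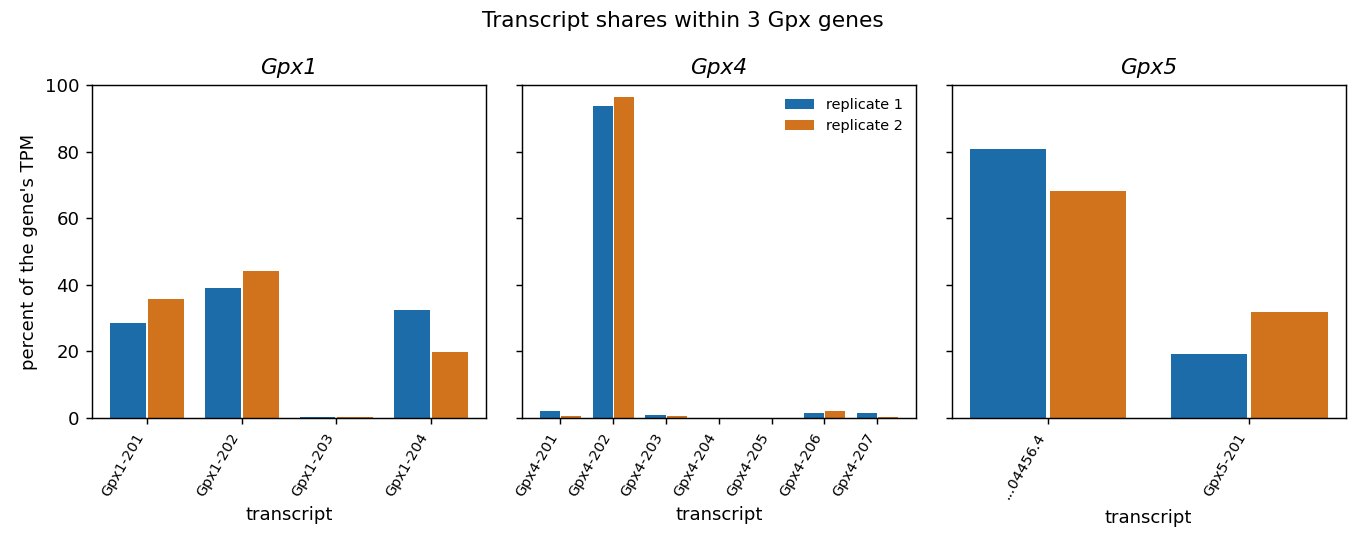
Percent of each gene's TPM carried by its transcripts, replicate 1 left and replicate 2 right, for Gpx1, Gpx4 and Gpx5. The shorter Gpx5 form (labelled by the end of its identifier) held 80.85% in replicate 1 and 68.22% in replicate 2, Gpx4-202 held 93.81% and 96.45%, and Gpx1 was divided among 3 forms.

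Gpx2, the selenocysteine enzyme of the gastrointestinal epithelium, was the member below the expression threshold. It had 0.54 TPM in replicate 1 and 0.45 TPM in replicate 2, from 17.00 and 17.63 fragments. The exact 95% Poisson intervals were 0.3146 to 0.8646 TPM and 0.2651 to 0.7145 TPM, which overlap widely and cover counting error only. A total of 3 fragments would have given 0.0953 and 0.0766 TPM, so Gpx2 was above that floor in both libraries. It lies within the span of Fntb on the opposite strand of chromosome 12, at 76792333 to 76795554, and Fntb had 20.47 and 21.87 TPM. The libraries are stranded by their labels, but whether counting used the strand is not given in the sources used here. The pseudogene Gpx2-ps1 had 0 TPM in replicate 1 and 0.91 TPM in replicate 2, the latter from 3.37 fragments. The origin of the few Gpx2 fragments is therefore uncertain, and sharing of fragments with the pseudogene was not tested. Of 6 intestinal epithelium markers 2 were expressed, and the list summed to 12.65 and 5.91 TPM.

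Gpx7 and Gpx8 are the cysteine members of the ER that work with protein disulfide isomerases in oxidative folding. Both were expressed, below every other member except Gpx2. By TPM among all genes, Gpx7 ranked 5083rd and 4659th and Gpx8 ranked 6319th and 6856th, with 14303 genes expressed. Gpx7 had 24.11 TPM in replicate 1 and 24.22 TPM in replicate 2, from 914 and 1172 fragments, and 98.5% of genes had a larger absolute ratio. Gpx8 had 17.38 TPM in replicate 1 and 13.69 TPM in replicate 2, from 518 and 504 fragments, a ratio of 1.27-fold. Gpx7 was higher than Gpx8 by 1.39-fold in replicate 1 and 1.77-fold in replicate 2, and their ranges did not overlap. Gpx6 exceeded Gpx7 by 1.14-fold and 2.01-fold, and those ranges did not overlap either. Gpx7-201 carried 94.19% and 97.54% of its gene, and Gpx8 has the single transcript Gpx8-201. Gpx7 lies on chromosome 4 at 108400390 to 108406961 and Gpx8 on chromosome 13 at 113042753 to 113046410, both on the minus strand. Gpx8 overlaps Cdc20b on the opposite strand, which was near 0 at 0.06 and 0.03 TPM.

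Because the labels name a fat depot and Gpx5 is an epididymal gene, marker lists of the cell types the dissection could hold were set beside the family. Adipocyte markers were present, 10 of 10 expressed, with sums of 18802 TPM in replicate 1 and 17945 TPM in replicate 2 and a median log2 ratio of −0.08. They went both ways, 5 higher and 5 lower in replicate 1, with ratios between −2.63 and 0.85. The ends of that range were Lep, which encodes leptin, at 92.08 TPM in replicate 1 and 574.78 TPM in replicate 2, and Cfd, which encodes adipsin, at 6724.05 and 3717.40 TPM. Adipoq, which encodes adiponectin, had a ratio of −0.76. Epididymis markers were all expressed too, 14 of 14, with sums of 27791 and 19354 TPM, a fold of 1.44 beside 1.57 for Gpx5. Their log2 ratios had a median of 0.48 and ran between −0.81 and 1.32. Higher in replicate 1 were 9669 of the 14875 genes averaging at least 1 TPM, and 12 of the 14 epididymis markers. The 2 that were not, picked out after their values were seen, were Crisp1 at 1453.33 TPM in replicate 1 and 2544.77 TPM in replicate 2, and Defb48, which had 4373.91 TPM in replicate 1 and 4393.27 TPM in replicate 2. Gpx5 at 0.65 and Gpx6 at −0.80 both lay within the range of the epididymis list and within that of the adipocyte list. In the epididymis list only Crisp1, at −0.81, lay below Gpx6, and the next lowest was Defb48 at −0.01. In the adipocyte list only Cfd lay above Gpx5, with Pnpla2 next at 0.22, and only Lep lay below Gpx6. The part of epididymal tissue in the Gpx levels was not tested, and in bulk tissue fewer cells of a type and less RNA per cell cannot be told apart.

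Markers of other cell types differed in how they compared between the libraries. Erythroid markers were higher in replicate 1 for 5 of 5 genes, beside 9669 of all 14875 genes averaging at least 1 TPM. The erythroid markers summed to 10310 and 4071 TPM, a fold of 2.53. Red cells are known for high Gpx1, which was itself nearly level between the libraries by TPM, and their part in its level was not tested. Macrophage markers were expressed in 6 of 6 cases, summing to 484.4 and 572.1 TPM. Only the abundant Lyz2 and C1qb of that list were lower in replicate 1, the other 4 were higher, and the median log2 ratio was 0.15, near the 0.12 of all genes. Endothelial markers were expressed in 4 of 4 cases, summing to 470.4 and 557.8 TPM, with 1 higher in replicate 1. Seminal vesicle and vas deferens markers were expressed in 1 of 6 cases, Akr1b7 at 929.71 and 382.05 TPM. The seminal vesicle secretory genes Svs2, Svs4 and Svs5 were at 0 in replicate 1 and at 3.17, 11.96 and 25.05 TPM in replicate 2. Ovary and uterus markers were expressed in 1 of 7 cases, beside the near absence of Xist in libraries labelled as a pool of both sexes.

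**Figure D4:**
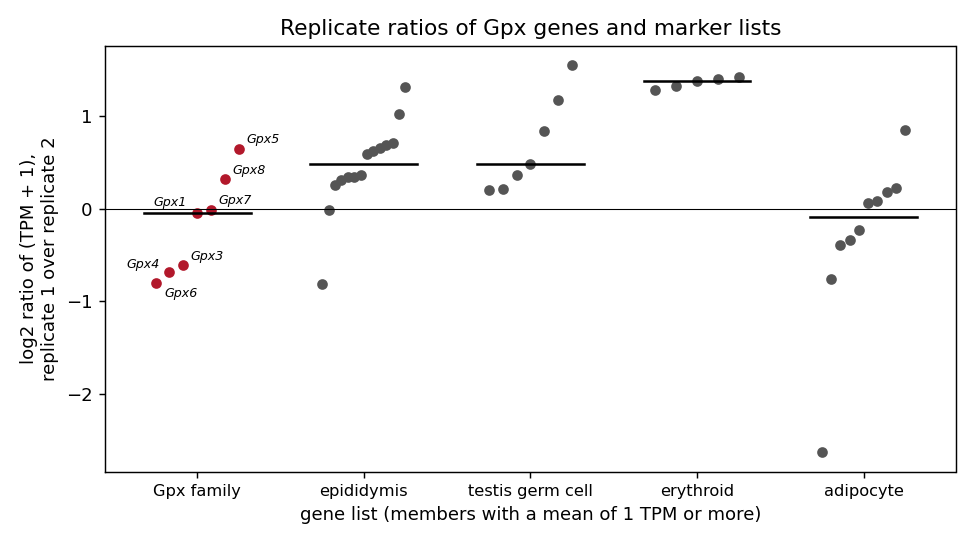
Log2 ratio of (TPM + 1), replicate 1 over replicate 2, for the 7 Gpx genes and for 4 marker lists, restricted to genes averaging at least 1 TPM, with a bar at each list's median. The Gpx genes spread between −0.80 and 0.65, the epididymis list centred on 0.48, the 5 erythroid genes clustered at 1.38, and the adipocyte list ran between −2.63 and 0.85 around a median of −0.08.

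The enzymes that make and recycle glutathione, the electron donor of the classical members, were expressed in full. All 11 listed genes passed 1 TPM in both libraries, with medians of 82.42 and 83.57 TPM. The most abundant were the amino acid transporter subunit Slc3a2 at 231.49 and 176.25 TPM, and the NADPH-producing enzymes Pgd at 189.01 and 232.80 TPM and G6pdx at 155.66 and 173.96 TPM. Glutathione breakdown genes were expressed in 9 of 10 cases, with Ggt6 under 1 TPM in replicate 1 at 0.90 TPM, against 1.24 TPM in replicate 2. They were led by Lap3 at 207.22 and 141.16 TPM, Ggt1, a gamma-glutamyltransferase, at 162.39 and 97.44 TPM, and Dpep1 at 67.63 and 73.17 TPM. None of the genes of these lists was over 2-fold apart between libraries, beside 2.70% of all genes assessed. At so low a share, this does not set such short lists apart from other genes. Me1 came closest, at 82.42 TPM in replicate 1 and 159.95 TPM in replicate 2, a log2 ratio of −0.95.

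Other antioxidant systems were present beside the family. The thioredoxin and glutaredoxin list was expressed in 10 of 10 cases, with the thioredoxin inhibitor Txnip at 531.62 and 723.93 TPM, Txn2 at 151.02 and 159.84 TPM and Txn1 at 142.85 and 129.68 TPM. Other peroxide and superoxide enzymes were expressed in 6 of 11 cases. Their leaders were the cytosolic superoxide dismutase Sod1 at 603.93 and 517.91 TPM, catalase (Cat) at 161.63 and 155.52 TPM and the extracellular enzyme Sod3 at 83.72 and 83.46 TPM. By TPM, Gpx1, Gpx3 and Gpx4 were each above Cat in both libraries. Of the lipid peroxide and ferroptosis list 11 of 11 were expressed, led by the ferritin heavy chain Fth1 at 1741.29 and 1423.34 TPM, Lpcat3 at 120.81 and 108.55 TPM and Aifm2 at 68.48 and 107.45 TPM. The list of the NRF2 pathway, a stress response to oxidants, had 9 of 9 expressed, led by Gclm at 142.27 and 83.57 TPM, Srxn1 at 88.80 and 95.10 TPM and Keap1 at 55.63 and 52.61 TPM.

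Gpx1 to Gpx4 depend on selenocysteine insertion. The genes listed for that step and for selenium supply were expressed in 12 of 12 cases. Their medians were modest, at 13.99 TPM in replicate 1 and 13.95 TPM in replicate 2. Rpl30, a ribosomal protein that binds the selenocysteine insertion element, led the list at 144.25 and 102.52 TPM, followed by Sephs2, a selenophosphate synthetase, at 23.62 and 22.28 TPM and Pstk at 20.27 and 23.48 TPM. Only Ncl of that list was over 2-fold apart, at 10.68 and 4.42 TPM, beside 2.70% of all genes assessed. Other selenoproteins were expressed in 13 of 16 cases, with Selenov, Dio1 and Dio2 under 1 TPM in both libraries. Selenop, the selenium carrier of plasma, had 323.19 and 323.08 TPM, Selenow had 297.67 and 300.98 TPM and Selenof had 146.01 and 145.89 TPM. Gpx3 and Gpx4 exceeded Selenop in both libraries, as did Gpx1. The median log2 ratio of the 13 other selenoproteins that averaged at least 1 TPM was 0.02, within a range that ran between −0.34 and 0.28, while Gpx3 and Gpx4 lay below that range at −0.61 and −0.68. Genes listed for ER oxidative folding, the process of Gpx7 and Gpx8, were expressed in 8 of 8 cases. They were led by Pdia3 at 613.21 and 364.39 TPM, P4hb at 323.06 and 285.78 TPM and Qsox1 at 200.22 and 226.54 TPM. Only Ero1lb of that list was over 2-fold apart, at 6.74 TPM in replicate 1 and 2.43 TPM in replicate 2, beside the same 2.70%.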

How the data were processed

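The deposited gene and transcript tables gave, per the file headers, an expected count, TPM, FPKM and, per transcript, the percent of the gene's TPM. Per the labels' notes the build was mm10 with GENCODE M4. The aligner is not given in the sources used here, nor is the quantifier. Rows that are no gene held 2.28% and 1.83% of counts and entered no result. Symbols were matched by Ensembl identifier for 42462 genes. Positions and coding sequence came from GENCODE M21. Catalytic codons and identity were read from coding sequence with Biopython 1.88, in place of reference proteins. Ratios are of TPM + 1, and over 2-fold apart required a mean expected count of 20. The libraries differed by more than counting noise, with a chi-square per degree of freedom of 136.1, so they are not 1 library given 2 times. That value cannot tell separate mice from separate preparations of 1 pool. They were counted as separate samples by their labels. Counting intervals are exact 95% Poisson intervals on expected counts. Alternatives used posterior mean TPM, deposited FPKM, other thresholds, and counts rounded to whole numbers and scaled with edgeR 4.0.16 or DESeq2 1.42.0. The 2-fold code was run on simulated counts with counting noise only and a pseudocount of 0.1 TPM, not the 1 TPM of the reported rule. That run checks the code and gives no error rate for the rule in these libraries. All 8 members were named, with the 3 most abundant genes per pathway list, its genes under 1 TPM where these were 3 or fewer, and the 3 genes nearest in level to each of the 4 most abundant members. Marker genes were named after their values were seen. Members and lists were chosen with earlier results of these data known.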

Additional observations from a re-analysis of the deposited data

How the results depend on the processing

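With 2 libraries of 1 group, levels and orders are descriptions. The sign of each member's log2 ratio was the same in 6 of 6 alternatives. Over those 6 the ratio of Gpx1 ran between −0.29 and −0.04, and that of Gpx7 between −0.21 and −0.01. For the 2-fold rule, 0 members were over 2-fold apart under any of its 5 alternatives. The count of all genes over 2-fold apart did move. It was 261 higher in replicate 1 and 195 higher in replicate 2 as reported, 714 and 360 with a pseudocount of 0.1 TPM, 516 and 516 with TMM scaling, and 500 and 520 with DESeq2 size factors. The setting of 0.1 TPM changed only the pseudocount. The scaled counts had 1 count added rather than 1 TPM, so scaling and pseudocount changed together there. Their separate parts were not tested. The Gpx5 share of the family was 72.6% over both libraries, 79.0% on expected counts, which favour longer transcripts, and between 64.9% and 80.2% without either replicate. Of 28 ordered pairs of members, 27 to 28 held in a single replicate. At a threshold of 0.1 TPM 8 members were expressed, and at 10 TPM 7 were. The planned restriction to protein-coding transcripts was run by removing retained-intron and processed transcripts, since the shorter Gpx5 form has no type in M21. Depth limits Gpx2, with 17.00 and 17.63 fragments. No paired analysis was possible because the 2 replicates belong to 1 group.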
